A study of Mus musculus with 27 samples.

Results

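Mitotic kinesins are motor proteins that build the spindle, move chromosomes and separate the daughter cells. The 10 kinesin genes followed here were chosen by name: Kif11, Kif15 and Kifc1, which assemble the spindle, Kif2c, Kif4 and Kif22, which act on chromosomes, and Kif14, Kif20a, Kif20b and Kif23, which act at the spindle midzone and in cytokinesis. All 10 were found among the 55414 genes counted. All 10 passed the filter of a mean of 10 counts over the mice, which left 14114 genes to test. Kif14 and Kif4 averaged only 2 and 9.08 counts in mice without CCl4 and passed the filter through the CCl4 mice, so counts over the 10 genes are given below as description.

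The data were polyA RNA-seq gene counts of whole liver homogenate from 27 female Balb/c mice in 8 groups, and the study asked how blocking hyaluronan synthesis alters CCl4-induced liver fibrosis. Control mice (n = 4) had intraperitoneal olive oil and PBS by tail vein, and the CCl4 group (n = 2) had intraperitoneal CCl4, a hepatotoxin that is activated in hepatocytes. 4MU (n = 3) and CCl4 + 4MU (n = 4) mice had 4-methylumbelliferone, an inhibitor of hyaluronan synthesis, by daily gavage at 600 mg/kg with olive oil or CCl4. siHAS2-LNP (n = 3) and CCl4 + siHAS2-LNP (n = 4) mice had lipid nanoparticles (LNP) by tail vein with an siRNA against hyaluronan synthase 2, and siLuc-LNP (n = 3) and CCl4 + siLuc-LNP (n = 4) mice had the same particles with an siRNA against luciferase, which mice lack. The siRNA was dosed at 1 mg/kg and then 0.5 mg/kg, 2 times a week for 2 weeks, and both agents were started 2 days before the first CCl4 injection. The labels name no tail vein injection for the CCl4 group and no tail vein PBS for the 4MU mice, the mice were 8 weeks old, and nothing names a shared litter or cage. The study's methods add that control mice had a gavage of carboxymethyl cellulose, in which 4MU was given, without naming the groups meant. The group sizes are those of the labels and differ from the ones given in the study's methods, most for the CCl4 group, against which the treated CCl4 mice were set.

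Total counts ran from 18146198 to 29425937 in 26 mice and reached 7044386 in CCl4 + siHAS2-LNP mouse 4. A count of 0 therefore allowed up to 0.102 to 0.426 counts per 1000000 counts (CPM), taking 3 counts as the limit, for counting error only. Has2, the siRNA target, had 0 counts in 25 mice and at most 2 in the other two, so it could not check the labels. The 4 hepatocyte markers found (Alb, Ttr, Apoa1 and Apob) summed to 72300 to 196000 CPM in every mouse. Levels below are CPM on library totals adjusted by the trimmed mean of M-values. Fold changes are log2 values from edgeR's quasi-likelihood test over all 27 mice, with Benjamini-Hochberg adjusted p over 14114 genes and a threshold of 0.05.

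In a dividing cell, KIF11 is the tetrameric plus-end motor that pushes the spindle poles apart, KIF15 can maintain that separation, and KIFC1 is a minus-end motor that focuses the poles. KIF2C removes tubulin from microtubule ends and helps correct wrong attachments, KIF4 and KIF22 are chromokinesins that bind chromosome arms, and KIF23 is a subunit of centralspindlin, the complex that bundles midzone microtubules and recruits the cytokinesis machinery. KIF20A carries the chromosomal passenger complex to the midzone, KIF20B acts in the completion of cytokinesis and KIF14 recruits citron kinase to the midbody. Adult hepatocytes are mostly quiescent and re-enter the cell cycle after injury, while Kupffer cells, endothelial cells and stellate cells can divide as well. Genes of this kind are repressed in resting cells and activated late in the cycle through the DREAM and MuvB complexes, and 2 promoter elements known from that control are the cell cycle genes homology region, with the core TTTGAA, and the CCAAT box bound by NF-Y.

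The start regions of 7 members are shown because these elements lie there in some and not in others. A link between these elements and the levels of the genes was not tested. Each line holds 50 bases before and 50 bases from the start of the canonical transcript, read 5′ to 3′ on the gene's strand from GRCm39, with TTTGAA or its reverse TTCAAA and CCAAT or its reverse ATTGG in capitals. The GRCm39 windows were chr19:37364749-37364848 (plus strand) for Kif11, chr9:122780061-122780160 (plus) for Kif15, chr7:126641594-126641693 (minus) for Kif22, chr19:34899702-34899801 (plus) for Kif20b, chr9:61854024-61854123 (minus) for Kif23, chr17:34109720-34109819 (minus) for Kifc1 and chr4:117039787-117039886 (minus) for Kif2c.
Kif11: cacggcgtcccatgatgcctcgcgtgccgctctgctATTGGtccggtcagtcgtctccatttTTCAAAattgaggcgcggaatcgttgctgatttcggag
Kif15: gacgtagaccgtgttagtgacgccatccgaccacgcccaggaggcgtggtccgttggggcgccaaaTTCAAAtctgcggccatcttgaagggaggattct
Kif22: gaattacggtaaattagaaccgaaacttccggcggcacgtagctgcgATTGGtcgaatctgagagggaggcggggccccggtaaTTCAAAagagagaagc
Kif20b: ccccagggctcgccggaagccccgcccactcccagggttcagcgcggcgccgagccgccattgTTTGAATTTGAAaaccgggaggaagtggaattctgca
Kif23: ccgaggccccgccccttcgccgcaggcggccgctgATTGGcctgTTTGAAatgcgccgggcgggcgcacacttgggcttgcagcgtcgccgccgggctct
Kifc1: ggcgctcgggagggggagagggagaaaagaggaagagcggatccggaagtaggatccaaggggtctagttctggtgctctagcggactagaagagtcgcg
Kif2c: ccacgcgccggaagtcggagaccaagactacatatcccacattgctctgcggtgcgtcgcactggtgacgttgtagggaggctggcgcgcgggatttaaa

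Within 50 bases of the start, 5 of the 10 kinesins held TTTGAA on either strand, against 4% of 21770 protein-coding promoters. Counting the start base as 0, its first base lay at 12 in Kif11, 16 in Kif15, 34 in Kif22, -6 in Kif23, and 13 and again 19 in Kif20b, where the 2 copies abut without sharing a base. Over the longer stretch from 250 bases before to 50 bases after the start, 6 of 10 held TTTGAA and 5 of 10 held CCAAT, against 17.1% and 39.9% of all promoters. Kif11, Kif22 and Kif23 held both in the printed windows, with ATTGG first bases at -14, -3 and -15, and no base was shared between the 2 motifs. The Kifc1 and Kif2c stretches held neither, which says only that these letters are not in this stretch. Of the members not printed, Kif14 and Kif20a held neither within 50 bases of the start, and Kif4 held ATTGG at 3 but no TTTGAA. Other lists were counted over the longer stretch only, where 17.1% of all promoters held TTTGAA. Of the 11 midzone and cytokinesis partners 8 held TTTGAA there, and of the 11 spindle assembly partners 3 did. Of 3 other mitotic kinesins (Cenpe, Kif18a and Kif18b) 1 did, and of the 27 kinesins listed apart from the mitotic ones 1 did.

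The first comparison asked how CCl4 alone changed these genes. Every member was higher in both CCl4 mice than in any control mouse. All 10 rose in CCl4 against control, by 4.11 to 5.72 on the log2 scale with a median of 4.58, where the median of all genes tested was -0.02. The share of all genes that rose was 18%, and 25.7% of all genes had both CCl4 mice above every control mouse. In whole liver, more dividing cells and more transcript per dividing cell cannot be told apart.

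The spindle assembly motors were near 1 CPM or below in control liver. Kif11 (ENSMUSG00000012443, chromosome 19, 37364799 to 37410307, GRCm39, plus strand, 22 exons in the canonical transcript) stood at 1.27, 1.42, 1.02 and 1.31 CPM in control mice and at 15.8 and 39.7 CPM in CCl4 mice 1 and 2. Its mean rose 22.1-fold, a log2 change of 4.47 with a standard error of 0.460 and an adjusted p of 7.06e-08. Kif15 (ENSMUSG00000036768, chromosome 9, 122780111 to 122847806) was at 0.305, 0.590, 0.342 and 0.327 CPM in control and at 5.45 and 9.61 CPM in CCl4 mice. Both CCl4 mice thus lay far above control, and the change of Kif15 was 4.28 (adjusted p = 3.18e-07, standard error 0.486). Kifc1 (ENSMUSG00000079553, chromosome 17, 34094633 to 34109769) had 1.37, 0.295, 0.598 and 0.654 CPM in control mice and 14.7 and 26 CPM in CCl4 mice. Its controls were the most uneven of the 3 genes, and the log2 change was 4.79 (standard error 0.497, adjusted p = 7.92e-08). Kifc5b, a near copy of Kifc1 on the same chromosome, rose by 3.81 (adjusted p = 5.22e-08). Reads that map to several places were not counted, so the split of reads between Kifc1 and Kifc5b is uncertain.

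The chromosome motors include the gene with the largest change. Kif4 (ENSMUSG00000034311, chromosome X, 99669343 to 99770946) had 0.509, 0.295, 0.214 and 0.409 CPM in control mice, which is 5 to 10 counts a mouse, and 11.8 and 26.3 CPM in CCl4 mice. The log2 change of 5.72 (standard error 0.539, adjusted p = 2.11e-08) was the highest of the 10 genes in this comparison. Kif2c (ENSMUSG00000028678, chromosome 4, 117016830 to 117039836) stood at 0.305, 0.295, 0.470 and 0.409 CPM in control and at 10.5 and 21.3 CPM in CCl4 mice. That was a 41.7-fold rise, 5.38 on the log2 scale (adjusted p = 2.98e-09, standard error 0.436). Kif22 (ENSMUSG00000030677, chromosome 7, 126626898 to 126641643) was already among the more abundant members in control liver, with 1.73, 1.53, 1.02 and 1.10 CPM. It reached 17.5 and 35.3 CPM in CCl4 mice, and its log2 change was 4.30 (standard error 0.353, adjusted p = 3.47e-09). The start of Kif4 overlaps the start of Pdzd11, which lies on the other strand. Pdzd11 averaged 15.6 CPM in control and 18.5 CPM in CCl4 mice.

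Among the midzone and cytokinesis motors, Kif20a (ENSMUSG00000003779, chromosome 18, 34757158 to 34766342) was the most abundant per kilobase of exon in CCl4 liver. Kif20a had 2.65, 1.00, 0.598 and 1.27 CPM in control mice and 26.5 and 44.2 CPM in CCl4 mice, and its log2 change was 4.69 (standard error 0.472, adjusted p = 5.18e-08). The Kif20a gene overlaps Brd8 and Cdc23 on the opposite strand. Those neighbours averaged 20.4 and 12 CPM in control and 27.5 and 12.7 CPM in CCl4 mice, and the strand setting of the counting is not given in the sources used here. Kif20b (ENSMUSG00000024795, chromosome 19, 34899752 to 34953149) was at 0.865, 0.649, 1.15 and 1.31 CPM in control and at 11.4 and 23.6 CPM in CCl4 mice. Kif20b showed the smallest of the 10 changes, 4.11 (standard error 0.484, adjusted p = 5.56e-07). Kif23 (ENSMUSG00000032254, chromosome 9, 61823187 to 61854074) had 0.356, 0.708, 0.940 and 0.736 CPM in control mice and 9.68 and 19.7 CPM in CCl4 mice, and its log2 change was 4.4 (standard error 0.459, adjusted p = 8.45e-08). Kif14 (ENSMUSG00000041498, chromosome 1, 136394081 to 136459249) was close to absent in control liver, with 4, 0, 4 and 2 counts, against 54 and 161 counts in CCl4 mice. Its fitted change was 5.15 (standard error 0.699, adjusted p = 6.80e-06).

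**Figure D1:**
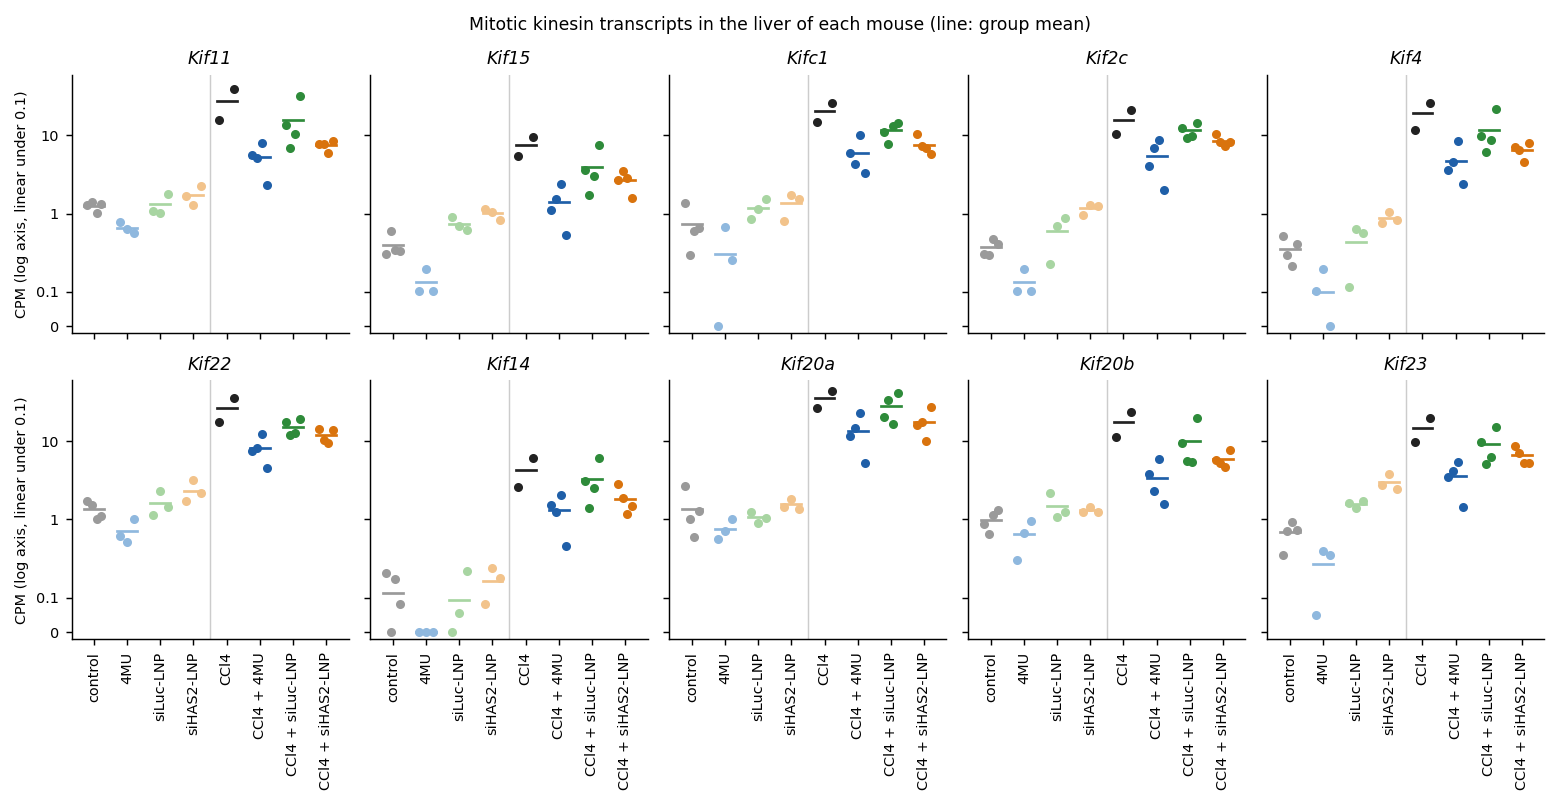
Level of each kinesin in CPM (log axis that is linear under 0.1) in the liver of each of the 27 mice, by group; a line marks the group mean. In the Kif11 panel the 2 CCl4 mice sit at 15.8 and 39.7 CPM and all 4 control mice between 1.02 and 1.42, and in every panel CCl4 mouse 2 is above CCl4 mouse 1.

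CCl4 mouse 2 was above CCl4 mouse 1 for every member, by 1.67-fold for Kif20a to 2.52-fold for Kif11. The summed level of the 10 kinesins was 126 CPM in mouse 1 and 252 CPM in mouse 2, against 6.53 to 9.57 CPM in control mice. CCl4 mouse 2 also had the lowest hepatocyte marker sum of all mice, 72300 CPM against 125000 in mouse 1 and 158000 to 196000 in control. Leaving out either CCl4 mouse leaves a single one, so only fold changes are given. Over the mice left out in turn, the change of Kif11 against control ranged from 3.67 to 5 and that of Kif4 from 5.06 to 6.2.

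Other cells also differed between these groups. Of 6 stellate cell and fibroblast markers 5 rose, and their summed level was 403 to 656 CPM in CCl4 against 41.6 to 75.9 CPM in control mice. Of 5 monocyte and neutrophil markers 3 rose, of 6 macrophage markers 2 rose and of 4 hepatocyte markers 2 fell. Beside these counts, 18% of all genes rose and 16.1% fell. No marker was at 0 in every mouse of either group. The summed bile duct marker level was 16.0 to 23.4 CPM against 4.33 to 11.6 CPM. Of these markers Krt7 rose, and Krt19, Epcam and Sox9 did not pass. Of the endothelial markers Kdr rose by 1.02 and Stab2 fell by 0.85, and Pecam1 and Cdh5 did not pass. The part of these cells in the kinesin changes was not tested.

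Per kilobase of exon, the order of the genes could be compared within each group. In CCl4 liver, Kif20a led with 7.05 ± 2.5 CPM per kb (SD, n = 2), followed by Kifc1 with 5.62 ± 2.2 and Kif22 with 5.19 ± 2.48, differences smaller than the spread between the 2 mice. Kif14 and Kif15 were the least abundant, with 0.410 ± 0.229 and 0.672 ± 0.262 CPM per kb. In control liver Kif20a and Kif22 led with 0.275 ± 0.177 and 0.265 ± 0.0667 CPM per kb (SD, n = 4), and Kif14 was lowest with 0.0107 ± 0.00865. Kif20a ranked highest per kilobase in all 4 CCl4 groups.

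The same question was then put within each treatment arm, each CCl4 group being set against its own agent without CCl4. Against 4MU, all 10 rose in CCl4 + 4MU, and 13.2% of all genes rose. Against siLuc-LNP, all 10 rose in CCl4 + siLuc-LNP, with 13% of all genes. Against siHAS2-LNP, 9 of 10 rose in CCl4 + siHAS2-LNP, with 7.74% of all genes, and Kif23 had a change of 1.14 (standard error 0.401, adjusted p = 0.0613). In each of the 3 arms every CCl4 mouse was above every mouse without CCl4 for all 10 genes, which held for 18.3%, 13.7% and 15.2% of all genes in the order given.

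The sizes differed from arm to arm. The median change of the 10 genes was 4.58 in mice with no agent, 3.92 with 4MU, 3.43 with siLuc-LNP and 2.42 with siHAS2-LNP. Kif14 had 0 counts in all 3 4MU mice, and against 3 counts per library its 1.32 CPM in CCl4 + 4MU was at least 9.37-fold higher, or 3.23 on the log2 scale. With Kif14 at that bound, the median with 4MU was 3.61. Kif2c had changes of 5.38, 5.23, 4.23 and 2.88 in these 4 arms. Kif20a, the midzone motor, had 4.69, 4.16, 4.70 and 3.48. Kif23, the centralspindlin subunit, had 4.4, 3.69, 2.53 and 1.14, the widest difference from first to last among the 10 genes.

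**Figure D2:**
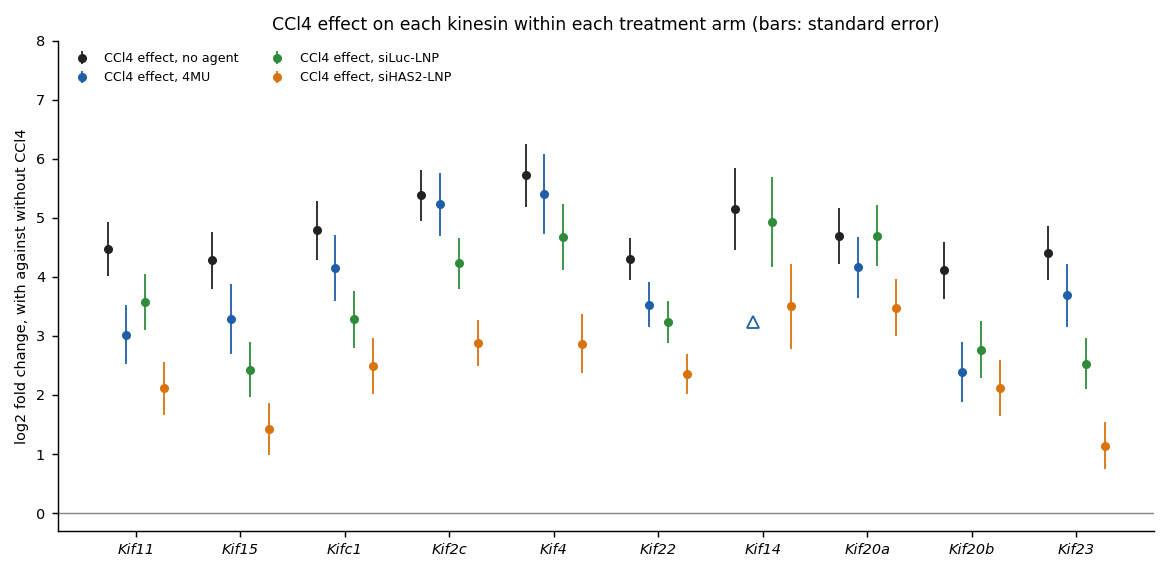
Log2 fold change of each kinesin with against without CCl4 in the 4 arms (no agent, 4MU, siLuc-LNP, siHAS2-LNP); points are edgeR estimates and bars their standard errors, and the open triangle is the lower bound of 3.23 for Kif14 with 4MU. All 40 values lie above 0, from 1.14 for Kif23 with siHAS2-LNP to 5.72 for Kif4 with no agent.

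Whether the arms differed in the CCl4 effect was tested as an interaction in the same fit. For 4MU against no agent, 0 of 10 kinesins passed in edgeR, DESeq2 or limma-voom, 2 had an unadjusted p under 0.05 (Kif11 and Kif20b), and the shares of all genes were 5.67% and 25.5%. The difference of changes was -1.72 for Kif20b (adjusted p = 0.137) and -1.45 for Kif11 (adjusted p = 0.191). For siLuc-LNP against no agent, 0 passed in any of the 3 tools and 4 had an unadjusted p under 0.05, with 0.00709% and 10% of all genes. Kif23 had the lowest p, with a difference of -1.88 (adjusted p = 0.342). For siHAS2-LNP against siLuc-LNP, 0 passed in any of the 3 tools and 4 had an unadjusted p under 0.05, with 0.0354% and 11.4% of all genes. Kif4 differed there by -1.81 (adjusted p = 0.345) and Kif23 by -1.38 (adjusted p = 0.353). A p above the threshold does not show that the arms were alike.

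Over all mice, the mean of the 4 CCl4 groups was set against the mean of the 4 groups without CCl4, and all 10 rose, by a median of 3.52, where 26.3% of all genes rose. Every one of the 14 CCl4 mice was above every one of the other 13 mice for 7 of the 10 genes, which held for 3.21% of all genes. Kif15, Kif20b and Kif23 overlapped between the 2 sets of mice. For Kif23, CCl4 + 4MU mouse 4 had 1.46 CPM, and siHAS2-LNP mice had 2.75, 3.87 and 2.45 CPM without CCl4. For Kif15, the same CCl4 + 4MU mouse had 0.534 CPM, and siHAS2-LNP mouse 1 had 1.13 CPM.

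The next question was how 4MU, siLuc-LNP and siHAS2-LNP altered the kinesins in CCl4 liver. The 3 comparisons share the same 2 CCl4 mice, so their values are given side by side and are not independent. All 10 genes were lower in CCl4 + 4MU than in CCl4 and passed the test, by 1.38 to 2.43 on the log2 scale (median -1.89, all genes 0.04), where 10% of all genes fell. In CCl4 + siHAS2-LNP 6 of 10 fell, with a median of -1.32 over the 10, where 7.33% of all genes fell. In CCl4 + siLuc-LNP 0 of 10 passed in edgeR, DESeq2 or limma-voom, with a median of -0.75, where 0.248% of all genes passed. Leaving out CCl4 mouse 2 leaves a single CCl4 mouse. Counts of genes passing cannot then separate lost power from smaller changes, so only fold changes are given. All 10 stayed below 0 with 4MU (median -1.35) and with siHAS2-LNP (median -0.77, from -1.12 to -0.33). With siLuc-LNP the median was -0.07 (from -0.46 to 0.31, with Kif2c, Kif14 and Kif20a above 0). All 3 medians were smaller in size than with all mice.

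In CCl4 + 4MU liver, Kif11 was at 5.68, 5.14, 8.06 and 2.35 CPM, below both CCl4 mice. The change of -2.39 (standard error 0.419, adjusted p = 0.000953) left 19.1% of the CCl4 mean. Kif15, the motor that backs up Kif11, stood at 1.12, 1.55, 2.4 and 0.534 CPM and fell by 2.43 (standard error 0.435, adjusted p = 0.00102). Kifc1 was at 5.89, 4.34, 10.2 and 3.27 CPM, and its log2 change was -1.78 (standard error 0.435, adjusted p = 0.00747). In all 3 spindle motors mouse 4 was lowest and mouse 3 highest of the group.

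The chromosome motors were lower in every treated mouse as well. Kif4 had 3.57, 4.54, 8.50 and 2.38 CPM in CCl4 + 4MU mice, and its log2 change was -2.00 (standard error 0.441, adjusted p = 0.00380). Kif22 had 7.53, 8.13, 12.5 and 4.52 CPM and changed by -1.69 (standard error 0.321, adjusted p = 0.00147). Kif2c had 4.09, 6.83, 8.68 and 1.99 CPM and changed by -1.56 (standard error 0.360, adjusted p = 0.00519). No CCl4 + 4MU mouse reached either CCl4 mouse for any of the 10 genes, which held for 21.5% of all genes.

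Of the midzone motors, Kif20b fell most with 4MU, from 11.4 and 23.6 CPM in CCl4 mice to 3.83, 2.34, 5.88 and 1.57 CPM. The change was -2.36 (standard error 0.447, adjusted p = 0.00147). Kif20a fell least of the 10 genes, with 11.7, 14.8, 22.7 and 5.27 CPM and a change of -1.38 (standard error 0.421, adjusted p = 0.0255). Kif20a thus kept 38.5% of the CCl4 mean. Kif23 had 3.49, 4.14, 5.36 and 1.46 CPM and changed by -2.03 (standard error 0.410, adjusted p = 0.00216). Kif14 had 35, 25, 56 and 13 counts and changed by -1.72 (standard error 0.558, adjusted p = 0.0351).

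**Figure D3:**
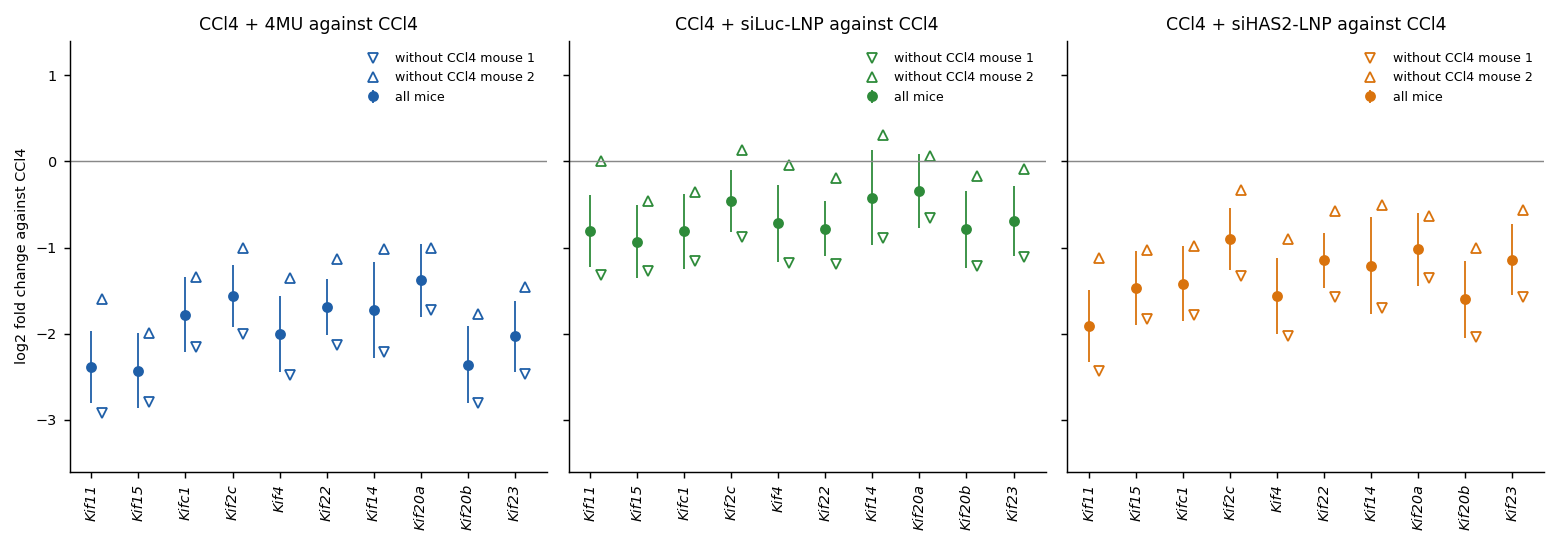
Log2 fold change of each kinesin in each treated CCl4 group (4MU, siLuc-LNP or siHAS2-LNP) against CCl4, with standard errors, and the same value with CCl4 mouse 1 or mouse 2 left out (open triangles). With all mice the CCl4 + 4MU values lie between -2.43 and -1.38, and without CCl4 mouse 2 they lie between -1.99 and -1.

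With siHAS2-LNP the genes that fell were Kif11, Kif15, Kifc1, Kif4, Kif22 and Kif20b. Kif11 had 7.71, 7.72, 5.98 and 8.41 CPM in CCl4 + siHAS2-LNP mice, and the highest of these was 1.41 times the lowest, the narrowest range of any kinesin in a CCl4 group. Kif11 changed by -1.91 (standard error 0.421, adjusted p = 0.00505). Kif20b had 5.68, 5.32, 4.70 and 7.74 CPM and changed by -1.6 (standard error 0.448, adjusted p = 0.0193). Kif4 had 7.20, 6.54, 4.54 and 7.88 CPM and changed by -1.56 (standard error 0.444, adjusted p = 0.0213). All 3 genes were lower in each of these mice than in either CCl4 mouse.

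The changes of the other three that fell were -1.47 for Kif15, -1.42 for Kifc1 and -1.15 for Kif22. Those of the 4 that did not pass were -1.21 for Kif14 (adjusted p = 0.149), -1.14 for Kif23 (adjusted p = 0.0612), -1.02 for Kif20a (adjusted p = 0.107) and -0.90 for Kif2c (adjusted p = 0.0962). All 10 had an unadjusted p under 0.05, as did 14.7% of all genes in this direction. For 7 of the 10 every treated mouse was below both CCl4 mice, against 18.8% of all genes. The overlap in Kif20a came from mouse 4, with 27.1 CPM from 203 counts in the shallowest library, against 26.5 CPM in CCl4 mouse 1. With CCl4 + siHAS2-LNP mouse 3 left out, 1 of 10 passed, and the share of all genes in that fit is not given here. Mitochondrial genes took 8.1% of the counts of that mouse, the highest share of the 27 mice, and 1.42% in CCl4 mouse 1, the lowest, against 3.8% in CCl4 mouse 2. The part of these shares in the calls was not tested.

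With siLuc-LNP the highest mouse was 1.56 times the lowest for Kif2c and 4.61 times for Kif11, the ends of the range over the 10 genes. The values overlapped those of the CCl4 mice for every member but Kifc1 (at most 14.6 against at least 14.7 CPM). They overlapped those of CCl4 + 4MU for every member but Kif2c (9.34 to 14.6 against 1.99 to 8.68 CPM). The shares of all genes without overlap in these comparisons are not given here. Kif11 had 13.6, 6.94, 10.5 and 32.0 CPM in CCl4 + siLuc-LNP mice, which enclosed CCl4 mouse 1. Its change was -0.81 (standard error 0.418, adjusted p = 0.385), with an approximate 95% interval from -1.69 to 0.06. Kif15 and Kif22 had an unadjusted p under 0.05 in this comparison, which 14.2% of all genes had, with changes of -0.93 and -0.78. Mouse 4 of this group was its highest mouse for every member. Without that mouse, 3 of 10 passed, and the share of all genes in that fit is not given here.

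The 2 mice with the highest kinesin sums also stood out in another measure. Long genes were compared with short genes in each mouse, as the median centred log2 level of 6917 genes with at least 6000 exon bases minus that of 1402 genes with at most 2000. This difference was 0.32 in CCl4 mouse 2 and 0.48 in CCl4 + siLuc-LNP mouse 4, against -0.25 to 0.23 in the other 12 CCl4 mice. Hepatocyte marker sums in these mice were 72300 and 104000 CPM, the lowest of their groups. CCl4 + 4MU mouse 4, which had the lowest kinesin sum of the CCl4 mice (23.8 CPM), had a bile duct marker sum of 122 CPM against at most 23.4 in every other mouse. Stellate cell and fibroblast marker sums were 142 to 414 CPM in CCl4 + 4MU, 245 to 756 in CCl4 + siLuc-LNP and 168 to 263 in CCl4 + siHAS2-LNP, against 403 to 656 CPM in CCl4, and 3 of these 6 markers fell with siHAS2-LNP. Macrophage marker sums were 192 to 286 CPM in CCl4 + siHAS2-LNP against 425 to 429 in CCl4, and 3 of 6 fell. Endothelial marker sums were 43 to 46.8 CPM against 63.9 to 71.8, and 2 of 4, Pecam1 (-0.85, adjusted p = 0.0445) and Kdr (-1.11, adjusted p = 0.0489), fell with siHAS2-LNP. Beside these marker counts, 7.33% of all genes fell with siHAS2-LNP against CCl4. The part of these differences in the kinesin values was not tested. Without CCl4 + 4MU mouse 4, 8 of 10 still passed against CCl4, and the share of all genes in that fit is not given here.

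Treated CCl4 groups were also set against each other, which leaves the 2 CCl4 mice out of the contrast. CCl4 + 4MU against CCl4 + siLuc-LNP gave 1 of 10, Kif11 (-1.58, standard error 0.367, adjusted p = 0.0435), where 0.283% of all genes fell. All 10 had an unadjusted p under 0.05, as did 9.91% of all genes in this direction, and the adjusted p of the other 9 ran from 0.0535 for Kif20b to 0.168 for Kifc1. DESeq2 passed 7 of 10 and limma-voom 3. The shares of all genes in these fits and in those below with mice left out are not given here. Such counts therefore describe only how the calls depend on the fit. The Kif11 ranges, 2.35 to 8.06 and 6.94 to 32.0 CPM, overlapped in 1 mouse of each group. Leaving out single mice gave 0 to 8 of 10, with 0 without mouse 1, 2 or 4 of CCl4 + 4MU or mouse 1 or 4 of CCl4 + siLuc-LNP, and 7 or 8 without CCl4 + 4MU mouse 3 or CCl4 + siLuc-LNP mouse 2 or 3.

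The siRNA against Has2 was compared with its own control, siLuc-LNP, in CCl4 liver. There 0 of 10 passed in edgeR, DESeq2 or limma-voom, as did 1.09% of all genes in edgeR, and 3 had an unadjusted p under 0.05 (16.6% of all genes). All 10 estimates were below 0, from -1.09 for Kif11 (adjusted p = 0.126) to -0.37 for Kif22 (adjusted p = 0.547). The approximate 95% interval for Kif11 ran from -1.86 to -0.33 and that for Kif23 from -1.18 to 0.28. For every member the 2 groups overlapped.

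CCl4 + 4MU against CCl4 + siHAS2-LNP also gave 0 of 10 in edgeR, DESeq2 and limma-voom (1.22% of all genes in edgeR), and 3 had an unadjusted p under 0.05 (18.6%). Those 3 were Kif15 with -0.96, Kif23 with -0.89 and Kif2c with -0.66, and their adjusted p was 0.189, 0.184 and 0.255. The estimates of the other 7 lay between -0.76 and -0.36.

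In mice without CCl4 all 10 genes were low, at 0 to 82 counts a mouse. The summed level of the 10 was 2.61 to 4.36 CPM in 4MU mice, 6.53 to 9.57 in control, 9.38 to 11.1 in siLuc-LNP and 12.6 to 16.9 CPM in siHAS2-LNP mice. Against control, 0 of 10 passed with 4MU in edgeR, DESeq2 or limma-voom, where 1 gene of all, or 0.00709%, did in edgeR. Unadjusted, 5 had a p under 0.05 against 6.84% of all genes. For Kif11, Kif15, Kif2c, Kif4 and Kif22 every 4MU mouse was below every control mouse, which held for 4.28% of all genes. For Kif15, Kif2c and Kif4 this rests on few counts, at most 5 in any 4MU mouse and 5 to 11 in control mice. Kif11 had 0.769, 0.625 and 0.557 CPM in 4MU mice, a change of -0.94 against control (adjusted p = 0.812). Kif22 had 0.615, 0.508 and 1.01 CPM, a change of -0.92 (adjusted p = 0.678). Kif14 had 0 counts in the 3 4MU mice and 0 to 4 in control, so no fold is given. Erythroid marker sums were 76.9 to 189 CPM in 4MU against 219 to 367 CPM in control mice and hepatocyte marker sums 123000 to 150000 against 158000 to 196000 CPM, and their part in the kinesin values was not tested.

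The nanoparticle groups without CCl4 were set against control and each other in the same way. siLuc-LNP against control gave 0 of 10 in edgeR, DESeq2 and limma-voom (0.213% of all genes in edgeR), and 1, Kif23, with an unadjusted p under 0.05 (6.80%). Kif23 was at 1.6, 1.42 and 1.71 CPM against 0.356 to 0.940 CPM in control, a change of 1.19 (adjusted p = 0.591). siHAS2-LNP against siLuc-LNP gave 0 of 10 in the same 3 tools (0.0425% of all genes in edgeR), and again Kif23 was the 1 gene with an unadjusted p under 0.05 (8.94%). Kif23 had 2.75, 3.87 and 2.45 CPM with siHAS2-LNP, above every siLuc-LNP and every control mouse, and the change against siLuc-LNP was 0.93 (adjusted p = 0.557).

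A direct comparison of siHAS2-LNP with control was added after these values were seen. It gave 0 of 10 in edgeR and limma-voom and 1 in DESeq2, where 0.0992% of all genes passed in edgeR, and 5 had an unadjusted p under 0.05 (6.48%). Kif23 had a change of 2.12 (standard error 0.447, adjusted p = 0.0575), and its adjusted p ran from 9.27e-07 to 0.375 over the alternatives. Kif2c had 0.969, 1.27 and 1.26 CPM against 0.295 to 0.470 CPM in control, a change of 1.61 (adjusted p = 0.259). Kif15 had 1.13, 1.04 and 0.837 CPM, a change of 1.38 (adjusted p = 0.495). Erythroid marker sums were 426 to 514 CPM in siHAS2-LNP and 219 to 367 CPM in control mice, and lymphocyte marker sums were 3.07 to 4.6 CPM against 6.26 to 7.97 CPM. The part of these differences in the kinesin values was not tested.

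**Figure D4:**
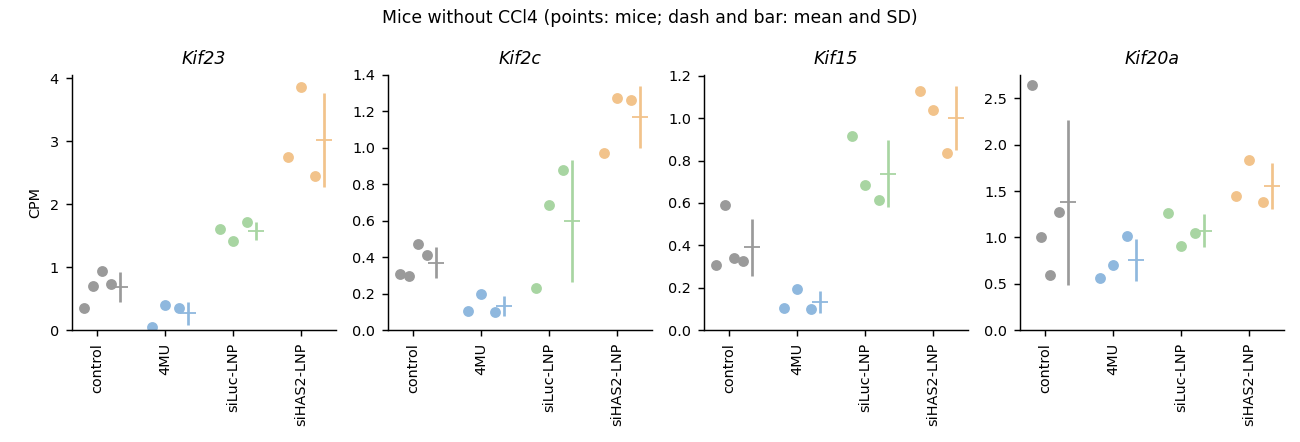
Level in CPM of Kif23, Kif2c, Kif15 and Kif20a in mice without CCl4, each point a mouse and the dash and bar the group mean and SD. The 3 siHAS2-LNP mice lie at 2.45 to 3.87 CPM for Kif23, above the 4 control mice at 0.356 to 0.940 CPM, while Kif20a overlaps between these groups.

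The share of each gene in the family's counts is given as a description, with no test. Over pooled counts, in which the mice with most kinesin counts weigh most, Kif20a made up 13.6% without CCl4 and 21.9% with it, and Kif23 15.1% and 7.83%. By mouse these shares overlapped, at 9.14% to 27.7% without and 17.5% to 37.3% with CCl4 for Kif20a, and at 1.96% to 22.8% and 5.78% to 10.2% for Kif23. Kif4 made up 0% to 6.29% of the counts of each mouse without CCl4 and 6.94% to 11.2% with it, with no overlap. The highest Kif20a share of the CCl4 mice, in CCl4 + siLuc-LNP mouse 2, came with 4.81 Kif20a counts per Kif11 count against 1.11 to 3.22 in the other CCl4 mice. That mouse had 33.4 CPM of Kif20a but 6.94 CPM of Kif11, the lowest Kif11 value of its group.

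**Figure D5:**
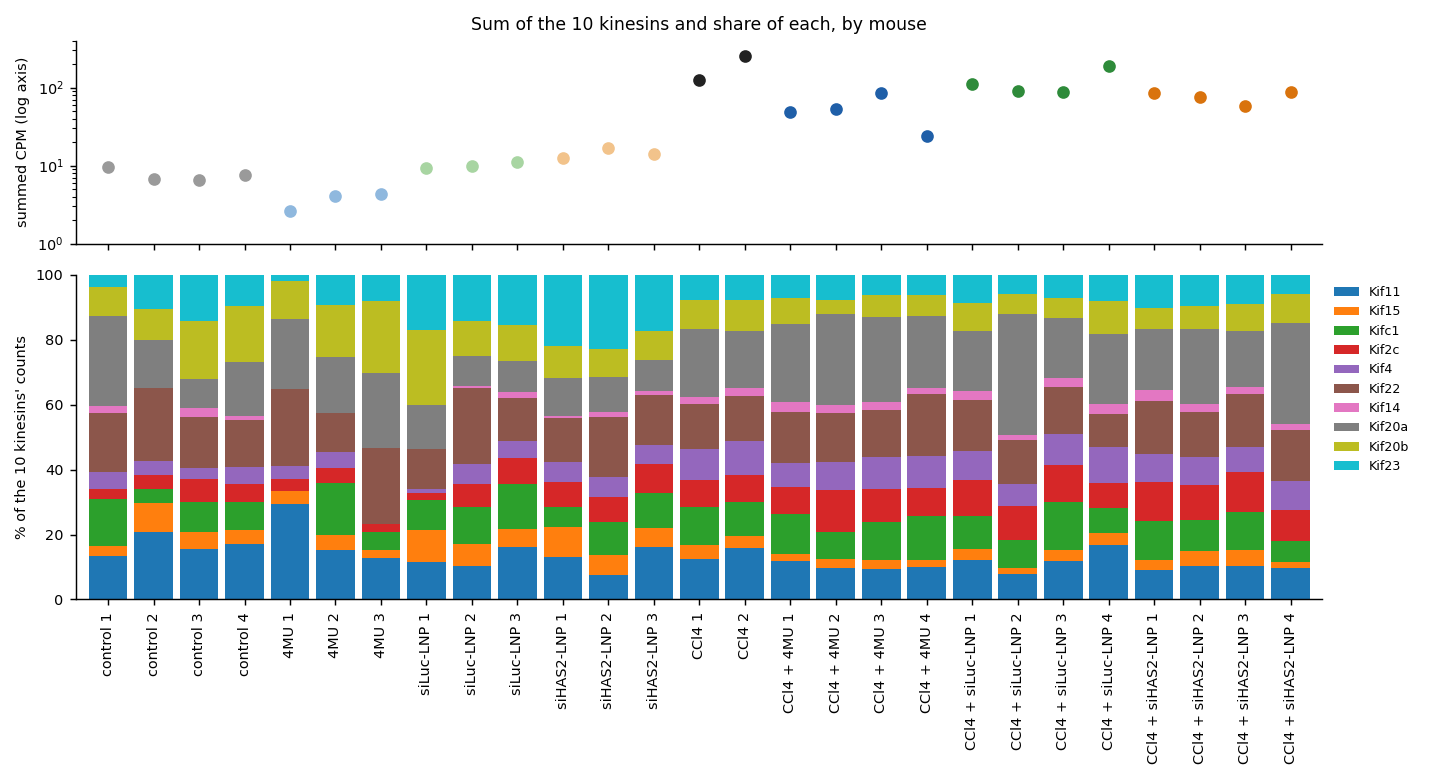
Summed CPM of the 10 kinesins (top, log axis) and the percentage of their counts that each gene contributed (bottom) in each of the 27 mice. The sum ranges from 2.61 CPM in 4MU mouse 1 to 252 CPM in CCl4 mouse 2, and Kif20a reaches its highest share of the CCl4 mice, 37.3%, in CCl4 + siLuc-LNP mouse 2.

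Across the 14 CCl4 mice, the log2 levels of the 10 genes moved together, with a median Pearson r of 0.913 over 45 pairs (0.739 to 0.980). Kif11 and Kif4 were closest (r = 0.980) and Kifc1 and Kif20a least close (r = 0.739). With group means removed the median was 0.827. In the 13 mice without CCl4 the median was 0.662 (0.309 to 0.914), with counts near the floor, and Kif15 and Kif23 were closest there (r = 0.914). These points share library, depth and the mice that stood apart, and the values are a description. The 5 other genes whose pattern over the 14 CCl4 mice was most like the mean of the kinesins were Tpx2 (r = 0.991, Spearman rho = 0.974), Anln (0.990, 0.965), Bub1 (0.987, 0.965), Tacc3 (0.985, 0.956) and Melk (0.984, 0.965).

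Other genes of mitosis came from lists set by function. Beside their counts, 18% of all genes rose with CCl4 against control, and 10% fell with 4MU and 7.33% with siHAS2-LNP against CCl4. The 3 other mitotic kinesins, Cenpe, Kif18a and Kif18b, all rose in CCl4 against control, by 5.22, 2.84 and 6.14, and all 3 fell in CCl4 + 4MU against CCl4, by 2.00, 2.08 and 1.57. Of the 11 midzone and cytokinesis partners, 11 rose with CCl4 (median 5.18), 10 fell with 4MU (median -1.91) and 7 fell with siHAS2-LNP (median -1.41). Birc5, Racgap1, Ect2 and Incenp, the most abundant of them, fell by 1.24, 1.71, 1.91 and 1.86 with 4MU. Of the 11 spindle assembly partners, 10 rose with CCl4 (median 5.28), 10 fell with 4MU (median -1.8) and 7 fell with siHAS2-LNP (median -1.32). The exception with CCl4 and 4MU was Numa1, with a change of 0.40 with 4MU (adjusted p = 0.181). Mki67, the proliferation marker, rose by 5.28 with CCl4 and fell by 1.8 with 4MU. With siLuc-LNP against CCl4 no midzone or spindle partner passed. All their estimates but those of Cit (0.19) and Numa1 (0.05) were below 0 there, down to -1.07 for Aurka. The 4MU, siLuc-LNP and siHAS2-LNP values rest on the same 2 CCl4 mice as those of the kinesins, and these lists were not refitted without CCl4 mouse 2.

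The regulators of mitotic genes were split. Of 11 listed factors 4 rose in CCl4 against control, Foxm1 by 5.05, E2f1 by 3.71, Mybl2 by 3.63 and Lin9 by 1.10, and Lin37 fell by 0.74. The 5 are named because they passed the test, as are the factors named for 4MU. The NF-Y subunits Nfya, Nfyb and Nfyc had 0.44, -0.17 and -0.43, and E2f4 had 0.02, none of which passed. With 4MU, E2f1 fell by 2.07, Foxm1 by 1.46, Mybl2 by 2.21, Lin9 by 1.16 and Lin54 by 1.36, and Nfyc rose by 0.63. With siHAS2-LNP, E2f1 fell by 2.00, Lin9 by 1.10 and Lin54 by 1.19. E2f1 also fell with siLuc-LNP, by 1.61 (adjusted p = 0.0398), where 0.191% of all genes fell. 

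Kinesins listed apart from the mitotic ones include the carriers of vesicles and organelles as well as Kif24, which acts at centrioles, and Kif2a, which shortens microtubules. A place on this list does not mean that a gene has no part in mitosis. Of 27 listed 20 were tested, and 4 rose and 2 fell in CCl4 against control, with a median of 0.22, where 18% of all genes rose and 16.1% fell. The most abundant, Kif1c, Kif1b, Kif5b and Kif13b, had changes of -0.07, -0.46, 0.20 and 0.20, none of which passed. Kif5c, Kif24, Kifc3 and Kif3a rose, by 3.32, 2.69, 1.05 and 0.55, and Kifc2 and Kif5a fell, by 2.85 and 2.28. Against CCl4, Kif24 fell by 1.64 in CCl4 + 4MU, as did Kif5b by 1.04, while Kifc2 rose by 2.65. In CCl4 + siHAS2-LNP Kif24 fell by 1.65 and Kifc2 rose by 2.95, and Kif5b (-0.47) did not pass. In CCl4 + siLuc-LNP none of these genes passed (Kif24 -0.84, Kif5b -0.35, Kifc2 1.79). All of these values rest on the same 2 CCl4 mice.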

How the data were processed

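The authors trimmed paired reads with Trimmomatic 0.39, aligned them to GRCm39 with HISAT2 and counted unique reads per gene with featureCounts, with replicates kept apart. They deposited raw counts per gene. The strand setting of the counting and any versions beyond these are not given in the sources used here. Genes were named by Ensembl ID from GENCODE vM39 (54749 of 55414 matched). Counts were fitted with edgeR 4.0.16 (R 4.3.3) in 1 model of 8 groups over 27 mice, after a filter of a mean of 10 counts, and the test was first checked on simulated data. Standard errors were derived from the F statistic. CPM used trimmed-mean-scaled totals. DESeq2 1.42.0, limma-voom 3.58.1, DESeq2 size factors, 2 other filters, a replicate block, fits of the compared groups only and leaving out each mouse were the alternatives. The 10 kinesins, the gene lists and the named genes (all 10 members, up to 4 genes of the highest mean CPM per other list, and the 5 genes most like the members) were chosen with earlier results of these data known. No 2 mice of a group were duplicates (chi-square per degree of freedom 15.9 to 458 over 34 pairs). Promoter stretches were read from GRCm39 with Python 3, and figures were drawn with matplotlib. P-values set a difference against the spread between mice within groups. That spread was estimated over all 8 groups together and moderated across genes, and not for the CCl4 group alone. The depth of 7044386 to 29425937 counts per mouse limits single low counts.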

Additional observations from a re-analysis of the deposited data

Results flagged for a closer look

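Kif15 in control mouse 2 was set apart by Dixon's test, which was applied to each kinesin and their sum in the 4 groups of 4 mice (44 sets of values, of which 1 was set apart, where chance sets apart about 1 in 20). It stood at 0.590 CPM, against 0.305 to 0.342 CPM in the other control mice, and the gap to the nearest mouse was 0.873 of the whole range. These values rest on 6 to 10 counts a mouse.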

How the results depend on the processing

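All 10 changes of CCl4 against control passed under every alternative that kept both CCl4 mice. So did all 10 changes of the mean of the CCl4 groups and within the 4MU and siLuc-LNP arms. Over all comparisons, 2733 kinesin fold changes kept their direction and side of the threshold. A further 49 lost the threshold, 66 gained it and 33 turned direction. Calls against CCl4 rest on 2 CCl4 mice. Leaving out either of them leaves a single CCl4 mouse, so counts of kinesins passing against CCl4 are not given for those fits. Without CCl4 mouse 2, all 10 stayed below 0 for CCl4 + 4MU and for CCl4 + siHAS2-LNP against CCl4, with medians of -1.35 and -0.77. The shares of all genes that passed in the alternative fits below are not given here. The counts of kinesins therefore describe only how the calls depend on the fit. Against CCl4, 8 kinesins passed without CCl4 + 4MU mouse 4, 1 without CCl4 + siHAS2-LNP mouse 3 and 3 without CCl4 + siLuc-LNP mouse 4. Leaving out each mouse in turn gave 0 to 8 for CCl4 + 4MU against CCl4 + siLuc-LNP. CCl4 + 4MU against CCl4 + siLuc-LNP gave 7 in DESeq2, 3 in limma-voom, 10 with no low-count filter and 0 in a fit of these groups only, against 1. With no low-count filter, CCl4 + siHAS2-LNP against CCl4 + siLuc-LNP gave 2, CCl4 + 4MU against CCl4 + siHAS2-LNP 1, the interactions of 4MU, siLuc-LNP and siHAS2-LNP 2, 1 and 2, and siHAS2-LNP against control 2, where DESeq2 and a fit of those groups only gave 1 each, against 0 for each. None of the 33 that turned direction passed the test with all mice or under the alternative. In limma-voom, the difference for Kifc1 in the interaction of 4MU was 0.02 and that for Kif20a in the interaction of siLuc-LNP -0.24. Over the mice left out in turn, CCl4 + siLuc-LNP against CCl4 ran from -0.88 to 0.13 for Kif2c, -0.91 to 0.31 for Kif14 and -0.66 to 0.06 for Kif20a. siLuc-LNP against control ran from -0.24 to 0.22 for Kif11, -0.04 to 0.49 for Kif22, -1.85 to 0.30 for Kif14 and -0.61 to 0.17 for Kif20a. siHAS2-LNP against siLuc-LNP ran from -0.05 to 0.47 for Kifc1 and -0.34 to 0.19 for Kif20b, and siHAS2-LNP against control from -0.07 to 0.70 for Kif20a. The interaction of 4MU ran from -1.17 to 0.69 for Kifc1, -0.58 to 0.42 for Kif2c and -0.83 to 0.67 for Kif4, and that of siLuc-LNP from -0.72 to 1.43 for Kif14 and -0.51 to 0.40 for Kif20a. The cause was not tested. Same-numbered mice did not pair (median r of their deviations -0.0165 over 83 pairs, 4 of 27 mice closest to their own number). With the replicate number as a block, CCl4 + 4MU against CCl4 + siLuc-LNP gave 0, CCl4 + 4MU against CCl4 8, CCl4 + siHAS2-LNP against siHAS2-LNP 8, and CCl4 + siHAS2-LNP against CCl4 6, and the difference for Kif20a in the interaction of siLuc-LNP was -0.06. At the depth of these libraries, levels in mice without CCl4 rest on 0 to 82 counts.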
